A study of Mus musculus and Rattus norvegicus with 79 samples.

Results

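The liver packs lipid for export into lipoproteins, and the genes described here encode the proteins that coat those particles or load them. They are Apob, Mttp, Apoa1, Apoa2, Apom, Apoa5, Apoc2, Apoc3, Apoa4 and Apoe: 9 apolipoproteins and the transfer protein that loads APOB with lipid. They were taken by name, as 10 of the 24790 genes in the deposited liver counts, and for each gene the RefSeq transcript with the highest summed count stood for it. All 10 passed the filter on low counts in both liver experiments, in which 14744 and 15712 genes were tested, and counts of single members ranged from 418 to 1001450 per library.

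A very-low-density lipoprotein (VLDL) particle forms around one molecule of APOB in the endoplasmic reticulum of the hepatocyte, where MTTP transfers triglyceride onto it. APOA1 and APOA2 are the main proteins of high-density lipoprotein (HDL), and APOM travels mostly on HDL and carries sphingosine-1-phosphate. In the blood, lipoprotein lipase removes triglyceride from VLDL: APOC2 is its cofactor, APOA5 stimulates it and APOC3 inhibits it. APOE guides remnants to hepatic receptors, and APOA4, made by the intestine and by the mouse liver, circulates on HDL and on triglyceride-rich particles.

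The first experiment holds 27 polyA RNA libraries from livers of C57BL/6 mice that were given no virus, in 9 groups of 3: unfed at ZT10, and unfed or fed at ZT13, ZT14, ZT18 and ZT22. ZT is Zeitgeber time, the hours since lights on in 12 h of light and 12 h of dark, and all mice were used to eating at night only. The second experiment holds 36 libraries depleted of ribosomal RNA from livers of Nr3c1fl/fl mice, in 12 groups of 3. Nr3c1 encodes the glucocorticoid receptor (GR), and the floxed part of the gene is excised where CRE recombinase is present. All these mice, controls included, carry the floxed alleles and had a virus 10 days before, either AAV-tbg-GFP (called GFP livers below) or AAV-tbg-CRE (CRE livers). The tbg promoter is active in hepatocytes, so other liver cells are not targeted. Both kinds had no food at ZT10 and ZT12, and the livers of ZT13, ZT14, ZT18 and ZT22 are labelled as fed. GR binding sites were mapped by chromatin immunoprecipitation from unfed livers at ZT10, with 1 sample of each kind in the labels: GR and input from C57BL/6 mice without virus, and GR from Nr3c1fl/fl mice after AAV-tbg-GFP and after AAV-tbg-CRE. The name of the list found in both replicates is the authors', and the labels do not say which samples those replicates are. The labels number the replicates and do not say that each is a separate mouse, so p-values measure the spread between these samples.

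Total counts were 23.9 to 91.8 M per C57BL/6 library and 34.6 to 78.8 M per Nr3c1fl/fl library. Of the 10 hepatocyte markers looked up, 9 were in the tables, and their summed level was 78940 to 122300 CPM (counts divided by the library's scaled total in M) in C57BL/6 livers, 48030 to 73850 in GFP livers and 43760 to 63680 in CRE livers. Nr3c1 itself was below every GFP library in every CRE library of the same time, at 6 of 6 times, and its counts fell by 0.63 ± 0.06 on the log2 scale (edgeR, adjusted p = 1.846e-09). The count covers the whole transcript, so reads of the excised part are not told apart from the rest. The ranges over all times overlapped, 147 to 323 CPM with GFP and 103 to 201 CPM with CRE. In 6 Nr3c1fl/fl libraries, the 3 GFP and 1 of the CRE livers at ZT10 and 2 of the GFP livers at ZT12, the unmatched transcript NR_046233 took over 20% of all counts. It stayed out of library sizes.

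Apoa1, Apoc3, Apoa4 and Apoa5 lie next to each other on chromosome 9, at chr9:46228630-46230469, chr9:46233050-46235636, chr9:46240844-46243458 and chr9:46268608-46271921 (mm10). Apoc2 and Apoe are neighbours on chromosome 7, at chr7:19671579-19677941 and chr7:19696244-19701310. Apoa2 lies at chr1:171221564-171226379, Mttp at chr3:138089855-138143418, Apob at chr12:7977629-8016839 and Apom at chr17:35128997-35131801. The Apoa2 interval overlaps Tomm40l and that of Apoc2 overlaps Gm44805, and reads of such pairs cannot be told apart if strand was ignored. RefSeq (GRCm38.p6) gave promoter windows, from 250 bases before to 50 bases after the start, for 9 of the 10 genes. The windows of 3 genes that were lower in CRE livers (Apoa1, Apoa4 and Apom) and of Apoa5, the neighbour of Apoa1 that did not pass that test, are printed so that they can be compared. Capitals mark matches, on either strand, to any of the 6 motifs that are spelled out after the sequences.
Apoa1: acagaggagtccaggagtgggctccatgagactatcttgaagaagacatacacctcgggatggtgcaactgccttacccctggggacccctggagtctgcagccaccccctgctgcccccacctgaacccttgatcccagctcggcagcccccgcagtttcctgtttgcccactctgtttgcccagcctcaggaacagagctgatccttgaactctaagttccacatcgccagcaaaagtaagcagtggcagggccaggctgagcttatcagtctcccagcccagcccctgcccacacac
Apoa4: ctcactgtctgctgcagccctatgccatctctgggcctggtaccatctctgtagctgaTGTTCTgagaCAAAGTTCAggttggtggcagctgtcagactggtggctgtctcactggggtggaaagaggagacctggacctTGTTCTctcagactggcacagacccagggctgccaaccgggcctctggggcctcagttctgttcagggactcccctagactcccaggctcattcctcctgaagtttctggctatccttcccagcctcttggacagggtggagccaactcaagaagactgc
Apoa5: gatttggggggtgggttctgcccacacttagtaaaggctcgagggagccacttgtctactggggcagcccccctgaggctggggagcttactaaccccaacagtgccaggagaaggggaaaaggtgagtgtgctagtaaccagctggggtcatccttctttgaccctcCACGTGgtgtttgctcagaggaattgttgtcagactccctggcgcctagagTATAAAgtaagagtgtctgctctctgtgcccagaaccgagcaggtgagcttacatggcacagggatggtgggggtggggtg
Apom: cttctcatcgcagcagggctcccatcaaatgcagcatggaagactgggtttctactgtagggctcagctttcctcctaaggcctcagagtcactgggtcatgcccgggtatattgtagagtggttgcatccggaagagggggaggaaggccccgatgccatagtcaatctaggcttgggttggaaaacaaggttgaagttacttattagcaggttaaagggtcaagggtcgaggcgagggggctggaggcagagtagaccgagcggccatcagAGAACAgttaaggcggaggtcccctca
The Apoa1 window (chr9:46228380-46228679, + strand) held none of the 6 motifs. The Apoa4 window (chr9:46240594-46240893, + strand) held AGAACA on the reverse strand at bases 59 and 141 and CAAAGTNCA at base 69, with no overlap between them. The Apoa5 window (chr9:46268358-46268657, + strand) held CACGTG at base 169 and TATAAA at base 220, and the Apom window (chr17:35131752-35132051, - strand) held AGAACA at base 274. Among 32851 RefSeq promoter windows of this length, the hexamer of GR sites, AGAACA, was in 19%. The HNF4-type site CAAAGTNCA was in 1.41% and the E-box CACGTG in 7.15%. A TATA box, TATAAA, was in 13.6%. The 2 motifs that none of the 4 printed windows holds are the nuclear receptor hexamer AGGTCA, in 16.3% of windows, and the forkhead site GTAAACA, in 3.65%. Among genes whose CRE test did not pass, windows of Apoc2, Apoe and Mttp also held AGAACA, so the motif does not divide the genes by that test. These matches describe letters in the windows, not bound sites.

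Apoa5, the stimulator of lipoprotein lipase, was the member that differed between fed and unfed C57BL/6 livers on average over the 4 hours, and it was lower with food. The difference was small at ZT13 and large at ZT22. Apoc3, which encodes the inhibitor of the same enzyme, was higher with food at ZT18, and Apoa1 was lower with food at ZT22. The other 7 genes, Apob and Mttp among them, passed no test of fed against unfed livers.

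**Figure D1:**
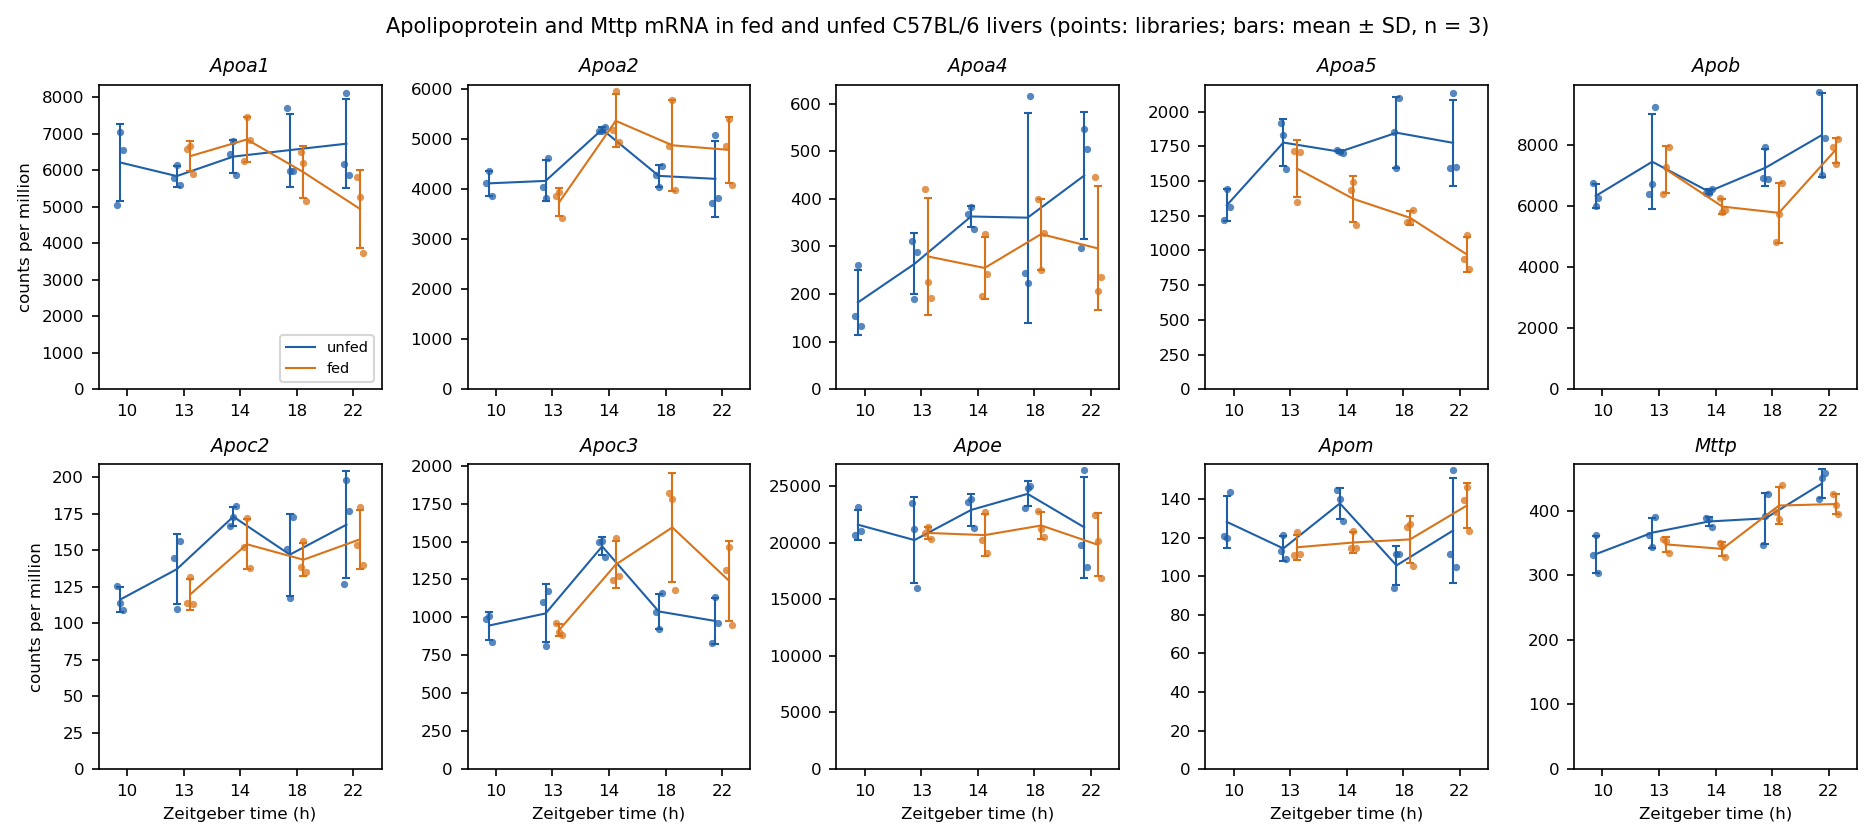
CPM of each of the 10 genes (vertical axis, linear) against Zeitgeber time (horizontal axis, hours as evenly spaced categories) in C57BL/6 livers, with 1 point per library (n = 3 per group) and lines through the group means, fed and unfed in separate colours. The Apoa5 lines separate from ZT14 on, with fed livers at 868 to 1111 CPM and unfed livers at 1594 to 2131 CPM at ZT22.

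Apoa5 stood at 1216, 1444 and 1315 CPM in unfed livers at ZT10. At ZT13 it was 1916, 1828 and 1588 CPM in unfed livers and 1714, 1349 and 1706 CPM in fed livers. These ranges overlapped. At ZT14 unfed livers held 1723, 1709 and 1701 CPM and fed livers 1438, 1494 and 1182 CPM. At ZT18 the values were 1850, 1593 and 2101 CPM unfed and 1208, 1203 and 1294 CPM fed. At ZT22 they were 1594, 2131 and 1600 CPM unfed and 938, 1111 and 868 CPM fed. From ZT14 to ZT22 every fed liver was below every unfed liver of its hour. On the log2 scale (± standard error) the difference was -0.16 ± 0.13 at ZT13 (edgeR's quasi-likelihood test with Benjamini-Hochberg adjustment, as for every adjusted p below, adjusted p = 0.632) and -0.32 ± 0.13 at ZT14 (adjusted p = 0.157). It fell by 0.58 ± 0.13 at ZT18 (adjusted p = 0.0016) and by 0.87 ± 0.13 at ZT22 (adjusted p = 2.776e-05). Averaged over the 4 hours Apoa5 fell by 0.48 ± 0.06, a 1.40-fold lower level (adjusted p = 2.115e-06). Endothelial markers moved in the same direction: 9 of 9 were lower with food at ZT18 (median -0.52), 4 of 9 at ZT22 (median -0.29), and 0 of 9 past the threshold at ZT13 and ZT14 (medians -0.12 and -0.22). Their summed level at ZT18 was 220 to 235 CPM fed and 316 to 346 CPM unfed. The 9 hepatocyte markers tested went both ways. At ZT18 2 were higher and 2 lower with food (median 0.12), and at ZT22 1 was higher and 2 lower (median 0.11). The part of either marker set in the Apoa5 difference was not tested. In whole liver, fewer cells that make a transcript and less transcript per cell cannot be told apart. Whether the fed-unfed difference itself differed between hours gave adjusted p = 0.0484, over 0.05 in 15 of 24 fits that left out 1 library (range 0.0274 to 0.113). It was 0.0627 without 2 libraries that hold transcripts of other tissues.

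Apoc3 was 1033, 926 and 1159 CPM in unfed livers and 1817, 1782 and 1180 CPM in fed livers at ZT18. The groups did not overlap, although the lowest fed liver lay just above the highest unfed one. The rise was 0.62 ± 0.16 on the log2 scale (adjusted p = 0.00651). At ZT22 unfed livers held 830, 1135 and 963 CPM and fed livers 1313, 1464 and 951 CPM, which overlapped (0.35 ± 0.16, adjusted p = 0.140). At ZT13 it was 1099, 809 and 1171 CPM unfed against 964, 905 and 882 CPM fed. At ZT14 it was 1500, 1503 and 1399 CPM unfed against 1246, 1524 and 1273 CPM fed. At both early hours the groups overlapped, with differences of -0.16 ± 0.16 and -0.12 ± 0.16. The mean over the 4 hours was 0.17 ± 0.08 (adjusted p = 0.110), and the change of the difference with hour had adjusted p = 0.0605.

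Both lipase regulators were read together as the ratio of Apoc3 CPM to Apoa5 CPM within each library. The scale of such a ratio depends on transcript lengths, so only its change between groups is read. At ZT18 it was 0.558, 0.581 and 0.552 in unfed livers and 1.504, 1.48 and 0.912 in fed livers. At ZT22 it was 0.521, 0.533 and 0.602 unfed and 1.40, 1.32 and 1.10 fed. Every fed liver was above every unfed liver at both of these hours. At ZT13 the ratio averaged 0.585 ± 0.148 (SD, n = 3) unfed and 0.583 ± 0.079 fed, and at ZT14 0.858 ± 0.031 and 0.988 ± 0.109. No test was made on the ratio, whose numerator and denominator were tested above.

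**Figure D2:**
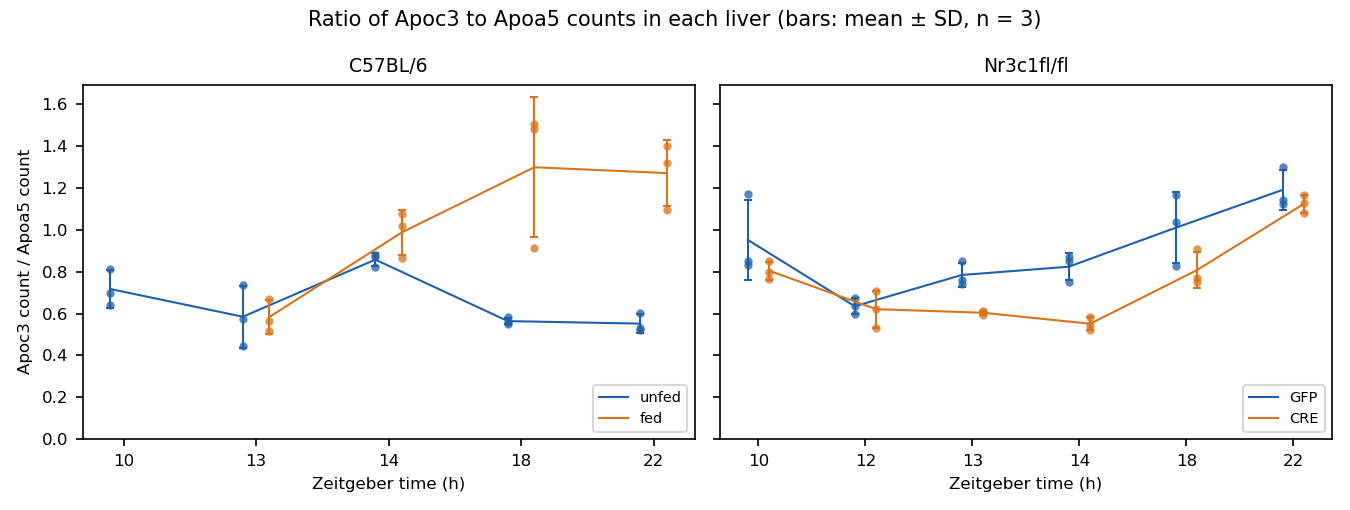
Ratio of Apoc3 CPM to Apoa5 CPM (vertical axis, linear, no unit) against Zeitgeber time (horizontal axis, evenly spaced categories), with 1 point per library (n = 3 per group) and lines through the group means, for fed and unfed C57BL/6 livers and for GFP and CRE livers. At ZT22 fed C57BL/6 livers lie at 1.10 to 1.40 and unfed ones at 0.521 to 0.602.

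Apoa1, the main HDL protein, was 6169, 8126 and 5877 CPM in unfed livers and 5802, 5265 and 3744 CPM in fed livers at ZT22. All fed livers were below all unfed livers, and the level fell by 0.45 ± 0.15 (adjusted p = 0.0375). That call rested on single libraries: it was lost without unfed replicate 2 (-0.28, adjusted p = 0.239), without fed replicate 2 (-0.49, adjusted p = 0.0532) and without fed replicate 3 (-0.28, adjusted p = 0.234). It was also lost with the 2 groups alone in the fit (adjusted p = 0.184). At the other 3 hours the Apoa1 groups overlapped, with differences between -0.14 and 0.13. Averaged over the hours it was -0.09 ± 0.08 (adjusted p = 0.395).

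Apob and Mttp, the pair that builds the VLDL particle, passed no test of food. Apob was 6943, 7959 and 6891 CPM in unfed livers and 4825, 5756 and 6777 CPM in fed livers at ZT18. The fed livers were all lower, by -0.33 ± 0.13 with adjusted p = 0.0695, and the mean over hours was -0.14 ± 0.07 (adjusted p = 0.0936). At ZT14 the fed livers were also all lower in Apob (-0.11 ± 0.13, adjusted p = 0.693). Mttp was 374.8 to 388.5 CPM unfed and 328 to 349.9 CPM fed at ZT14, without overlap (-0.17 ± 0.08, adjusted p = 0.272). At the other hours the Mttp groups overlapped. At ZT22 Mttp was 417, 451 and 458 CPM unfed and 426, 409 and 395 CPM fed. Its mean difference was -0.07 ± 0.04 (adjusted p = 0.215). Mean differences of the other genes were 0.07 ± 0.07 for Apoa2, 0.02 ± 0.06 for Apom, -0.12 ± 0.07 for Apoc2, -0.29 ± 0.18 for Apoa4 and -0.10 ± 0.07 for Apoe, with adjusted p from 0.215 to 0.789.

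Counts of members are read against the share of all tested genes past the same threshold. At ZT13 0 of 10 members were past it in either direction (0 at an unadjusted p under 0.05, and 0 with DESeq2), against 0.468% of all genes higher and 0.631% lower with food. At ZT14 0 of 10 were past it (Apoa5 alone at an unadjusted p under 0.05, and 0 with DESeq2), against 2.26% higher and 3.38% lower. At ZT18 1 member was higher, against 13.3% of all genes, and 1 lower, against 13.1%. At ZT22 0 were higher, against 10.5%, and 2 lower, against 9.77%. Over the mean of the hours 0 members were higher, against 17.5%, and 1 lower, against 17.9%, so the members' share was not above that of all genes. The median log2 difference was -0.09 over the members and 0.01 over all genes. For the change with hour it was 1 of 10 members against 8.1% of all genes. Over all genes, the split of 69 higher and 93 lower at ZT13 became 96 and 63 with library totals alone as the scale, and 333 and 498 at ZT14 became 398 and 353.

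Unfed C57BL/6 livers were compared over the 5 hours from ZT10 to ZT22, in which clock time and hours without food go together. Here 5 of 10 members differed among hours: Mttp (adjusted p = 0.00553), Apoc3 (0.0113), Apoc2 (0.0163), Apoa5 (0.0261) and Apoa4 (0.0401). Among all genes 42.5% did, so this count is near the background. Mttp was lowest at ZT10, at 332, 362 and 304 CPM, and highest at ZT22, where all 3 livers (417 to 458 CPM) were above them. Apoc3 peaked at ZT14, at 1399 to 1503 CPM against 809 to 1171 CPM in every other unfed liver. Apoa5 was lowest at ZT10, where its 1216 to 1444 CPM lay below the 1588 to 2131 CPM of all 12 later unfed livers. Apoc2 was also lowest at ZT10 (109 to 126 CPM) and highest at ZT14 (167 to 180 CPM). Of these calls, that of Mttp was kept in all 15 fits that left out 1 library. The Apoa5 call was lost without ZT10 replicate 1 (adjusted p = 0.162) or 3 (0.102), the Apoc2 call without ZT10 replicate 2 (0.0603) or 3 (0.0729), and the Apoc3 call without ZT14 replicate 1 (0.0567) or 2 (0.0574). The Apoa4 call rested on single libraries, with an adjusted p between 0.0113 and 0.155 when 1 library was left out and over 0.05 in 8 of 15 such fits. Unfed replicate 3 at ZT18 held 615 CPM of Apoa4 against 244 and 222 CPM in the other two, and also 505 CPM of pancreatic acinar markers against 13.1 to 33.8 CPM in all other C57BL/6 libraries. Without that library the Apoa4 call among unfed hours was kept (adjusted p = 0.0113), and its mean difference with food was -0.13 in place of -0.29. With DESeq2 the Apoa4 call was not made (adjusted p = 0.0681).

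CRE livers held less Apoa1, Apoa4, Apoc3 and Apom RNA than GFP livers on average over the 6 times. Of these, 3 are neighbours on chromosome 9, while Apoa5, at the far end of the same cluster, did not pass the test and overlapped at every time. Apob, Mttp, Apoa2, Apoc2 and Apoe did not pass it either.

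**Figure D3:**
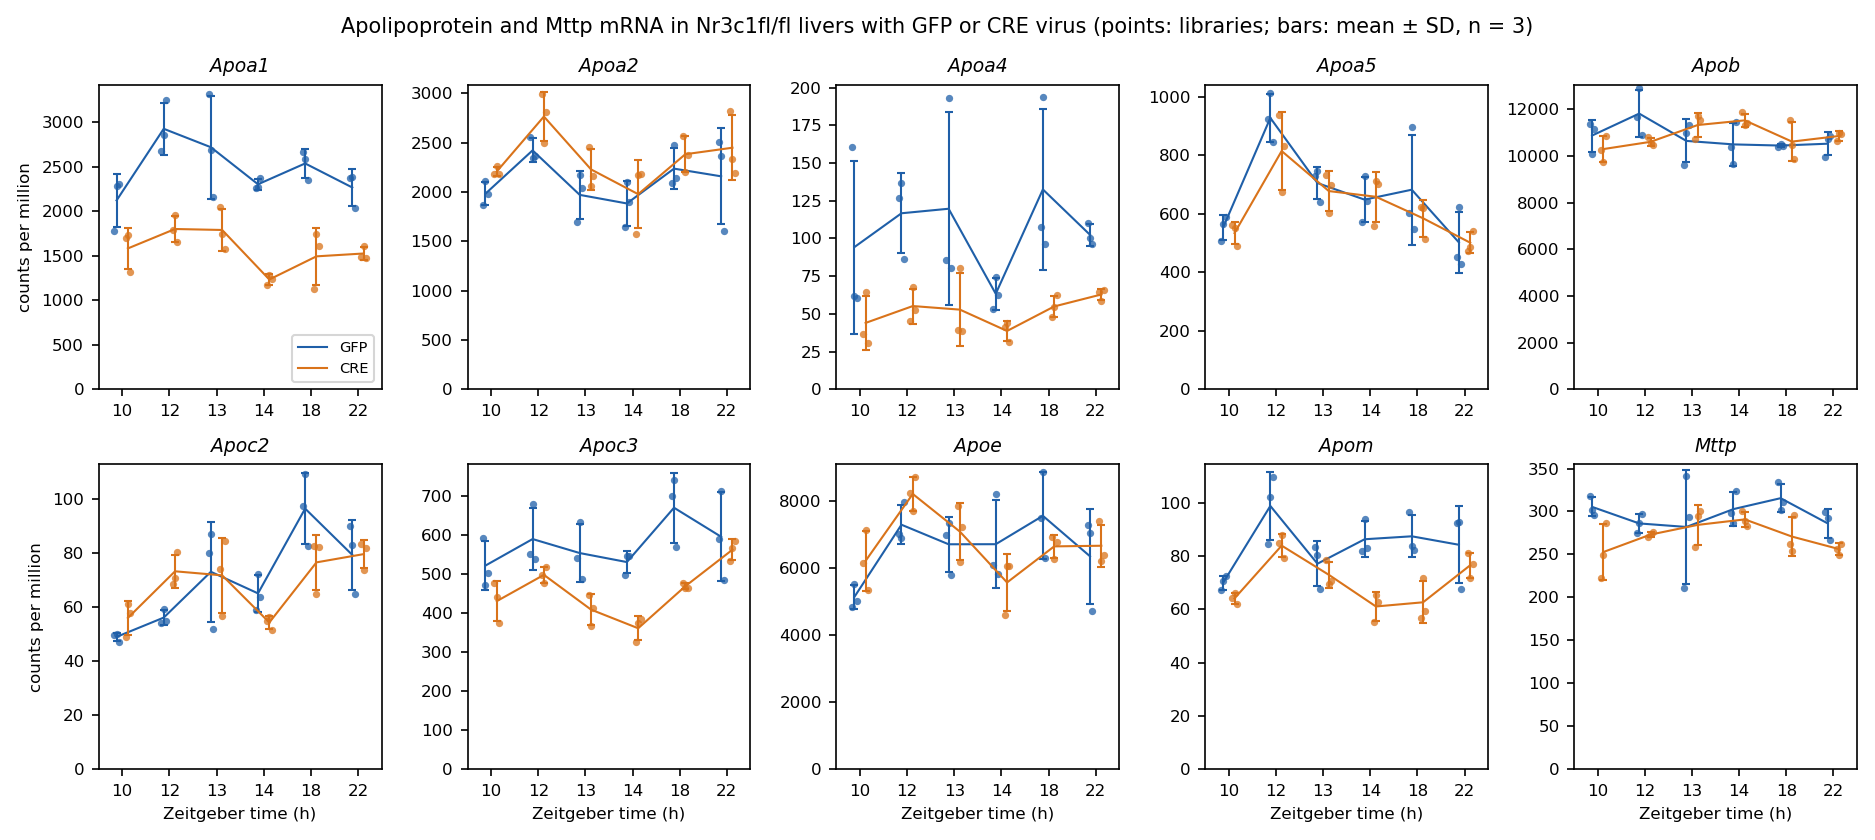
CPM of each of the 10 genes (vertical axis, linear) against Zeitgeber time (horizontal axis, evenly spaced categories) in Nr3c1fl/fl livers, with 1 point per library (n = 3 per group) and lines through the group means, GFP and CRE in separate colours. Livers at ZT10 and ZT12 were unfed and the rest fed, and Apoa1 lies lower in all CRE livers than in the GFP livers of the same time at 6 of 6 times.

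Apoa1 was 1779, 2279 and 2302 CPM with GFP and 1696, 1732 and 1315 CPM with CRE at ZT10. At ZT12 it was 2678, 2852 and 3243 CPM with GFP and 1785, 1956 and 1656 CPM with CRE. At ZT13 the values were 3312, 2681 and 2160 CPM against 2042, 1745 and 1578 CPM. No CRE liver reached the GFP livers of its time. At ZT14 the GFP livers held 2258, 2272 and 2372 CPM and the CRE livers 1166, 1287 and 1243 CPM. At ZT18 it was 2663, 2590 and 2353 CPM against 1128, 1741 and 1607 CPM. At ZT22 it was 2377, 2388 and 2031 CPM against 1488, 1603 and 1479 CPM. The separation therefore held at 6 of 6 times, unfed and fed. Averaged over the times Apoa1 fell by 0.66 ± 0.06, a 1.58-fold lower level (adjusted p = 3.686e-09).
By time, Apoa1 was past the threshold at ZT12 (-0.70 ± 0.15, adjusted p = 0.00504), ZT13 (-0.60 ± 0.15, adjusted p = 0.0132), ZT14 (-0.90 ± 0.15, adjusted p = 9.308e-04) and ZT18 (-0.76 ± 0.15, adjusted p = 0.0330). It was not past it at ZT10 (-0.42 ± 0.15, adjusted p = 0.245) or ZT22 (-0.57 ± 0.15, adjusted p = 0.138). The ZT14 call was kept in every fit that left out 1 library. The ZT13 call was lost without GFP replicate 1 (-0.45, adjusted p = 0.156) or CRE replicate 2 or 3, and the ZT18 call was lost in 5 of 6 such fits, with CRE replicate 2 the exception. At ZT12 the call was kept in all 6 but not without both GFP libraries rich in NR_046233 (-0.84, adjusted p = 0.0605), where GFP replicate 3 stands alone and is assumed to vary like the other groups. With library totals alone it was also lost (-0.38, adjusted p = 0.142), so Apoa1 is not among the members past the threshold at ZT12 under that scale. Whether the CRE-GFP difference changed with time had adjusted p = 0.744.

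Apoa4 fell by 1.01 ± 0.14 on average, a 2.01-fold lower level and the largest fall among the 10 genes (adjusted p = 7.258e-06). At ZT12 it was 127, 137 and 86.6 CPM with GFP and 45.1, 67.9 and 52.5 CPM with CRE. At ZT18 it was 107, 194 and 96.4 CPM with GFP and 48.0, 54.3 and 62.4 CPM with CRE. At these times, and at ZT14 and ZT22, every CRE liver was below every GFP liver. At ZT14 the GFP livers held 53.4, 74.2 and 62.4 CPM and the CRE livers 41.3, 43.7 and 31.0 CPM. At ZT22 it was 110, 100 and 96.6 CPM against 64.4, 58.4 and 65.7 CPM. At ZT10, GFP livers held 160, 61.9 and 60.4 CPM and CRE livers 36.7, 64.6 and 30.7 CPM, which overlapped. At ZT13 the ranges also overlapped, with 85.5, 193 and 80.2 CPM against 39.0, 80.6 and 38.7 CPM, although this was the time whose test passed the threshold (-1.18 ± 0.35, adjusted p = 0.0455). That call was lost without GFP replicate 2 (-0.66, adjusted p = 0.400), CRE replicate 1 (-1.01, adjusted p = 0.206) or CRE replicate 3 (-1.02, adjusted p = 0.172). Apoa4 is an intestinal gene as well, so enterocyte markers were read beside it. Alpi was at 0 counts in all 36 of these libraries, and Sis, Cdh17 and Fabp6 had at most 4, 2 and 2 counts, while Fabp2 had 136 to 1065, Treh 0 to 113 and Slc5a1 6 to 58. Of 9 such markers, the summed level was 10.6 to 30.1 CPM with GFP and 15.6 to 28.7 CPM with CRE, between 2 and 6 of them at 0 in a library. Of the 5 that were tested, 1 was lower in CRE livers: Treh, by -1.31 for the mean (adjusted p = 9.639e-04) and by -2.41 at ZT13 (adjusted p = 0.0268). The median of the 5 was 0.17 for the mean and -0.13 at ZT13, and their part in the Apoa4 difference was not tested.

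Apoc3 fell by 0.35 ± 0.05 on average, a 1.28-fold lower level (adjusted p = 1.484e-05). Its groups did not overlap at ZT12, ZT13, ZT14 and ZT18. At ZT14 it was 498, 547 and 547 CPM with GFP and 326, 373 and 384 CPM with CRE (-0.56 ± 0.13, adjusted p = 0.0220). At ZT13 it was 540, 634 and 487 CPM against 446, 367 and 414 CPM (-0.44 ± 0.13, adjusted p = 0.0434). At ZT18 it was 700, 741 and 569 CPM against 478, 464 and 464 CPM (-0.52 ± 0.13, adjusted p = 0.126). The widest gap between the groups' means was thus at ZT18 in CPM and at ZT14 on the log2 scale. At ZT22, with 591, 712 and 484 CPM against 534, 567 and 586 CPM, the CRE livers lay within the range of the GFP livers (-0.08 ± 0.13). Leaving out any of the 6 libraries ended the ZT14 call (adjusted p 0.0503 to 0.105), and leaving out GFP replicate 1 or 2 or CRE replicate 2 or 3 ended the ZT13 call (adjusted p 0.0783 to 0.232).

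Apom, the sphingosine-1-phosphate carrier, fell by 0.26 ± 0.05 on average, a 1.20-fold lower level (adjusted p = 1.534e-04). At ZT14 it was 81.9, 94.0 and 83.0 CPM with GFP and 55.1, 65.3 and 62.8 CPM with CRE. At ZT18 it was 96.4, 83.6 and 82.2 CPM against 56.9, 71.6 and 59.4 CPM. The groups were apart at these times and at ZT10, and overlapped at ZT12, ZT13 and ZT22. The ZT14 difference was past the threshold (-0.50 ± 0.11, adjusted p = 0.0184), but not without GFP replicate 2 (-0.44, adjusted p = 0.0778), CRE replicate 1 (-0.43, adjusted p = 0.102) or CRE replicate 3 (-0.52, adjusted p = 0.0654). With library totals alone as the scale the mean for Apom was -0.15 (adjusted p = 0.0880).

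Apoa5 overlapped between GFP and CRE livers at 6 of 6 times. At ZT12 it was 925, 1011 and 846 CPM with GFP and 938, 674 and 831 CPM with CRE. At ZT14 it was 573, 728 and 644 CPM against 558, 713 and 702 CPM. Its mean difference was -0.08 ± 0.06 (adjusted p = 0.451), and it took the other sign, 0.03, with library totals alone. The Apoc3 to Apoa5 ratio at ZT14 was 0.870, 0.751 and 0.849 with GFP and 0.583, 0.524 and 0.547 with CRE, without overlap. At ZT13 the groups were also apart, at 0.742 to 0.851 with GFP and 0.592 to 0.610 with CRE. They overlapped at ZT12 (0.596 to 0.673 against 0.532 to 0.707) and at ZT18 (0.826 to 1.16 against 0.750 to 0.906), where the CPM of Apoc3 itself did not, and at ZT10 and ZT22.

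Apob was 10360, 9632 and 11470 CPM with GFP and 11860, 11320 and 11390 CPM with CRE at ZT14. Over the 6 times its mean difference was 0.01 ± 0.04 (adjusted p = 0.925). Mttp was 334, 302 and 311 CPM with GFP and 262, 254 and 296 CPM with CRE at ZT18, where all CRE livers were lower. Its mean difference of -0.13 ± 0.05 missed the threshold (adjusted p = 0.0585), and passed it with DESeq2 (adjusted p = 0.0409). It also passed in 4 of 36 fits that left out 1 library, with the lowest value without GFP replicate 1 at ZT13 (adjusted p = 0.00406). Apoa2, the other main HDL protein, averaged 0.14 ± 0.06 (adjusted p = 0.108), a sign opposite to that of Apoa1. With library totals alone it was 0.25 (adjusted p = 0.0158). At ZT10, Apoa2 was 1868, 2106 and 1974 CPM with GFP and 2177, 2260 and 2183 CPM with CRE, the only time at which its groups were apart. Read within each library, the ratio of Apoa1 to Apoa2 CPM was 1.37, 1.08 and 1.25 with GFP and 0.739, 0.593 and 0.569 with CRE at ZT14. Apoc2 averaged -0.01 ± 0.06 and Apoe 0.02 ± 0.07. Apoc2 was above GFP livers at ZT12 in every CRE liver (68.5 to 80.1 CPM against 54.0 to 59.3 CPM). It was below them at ZT14 (51.5 to 56.2 CPM against 59.0 to 72.2 CPM). At ZT18 it was just below them (64.8 to 82.5 CPM against 82.6 to 109 CPM). None of these times passed the test (adjusted p 0.203, 0.485 and 0.572), and 2 of the GFP libraries at ZT12 were rich in NR_046233. The change of the Apoc2 difference with time had adjusted p = 0.343, so the time courses are not shown to differ.

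**Figure D4:**
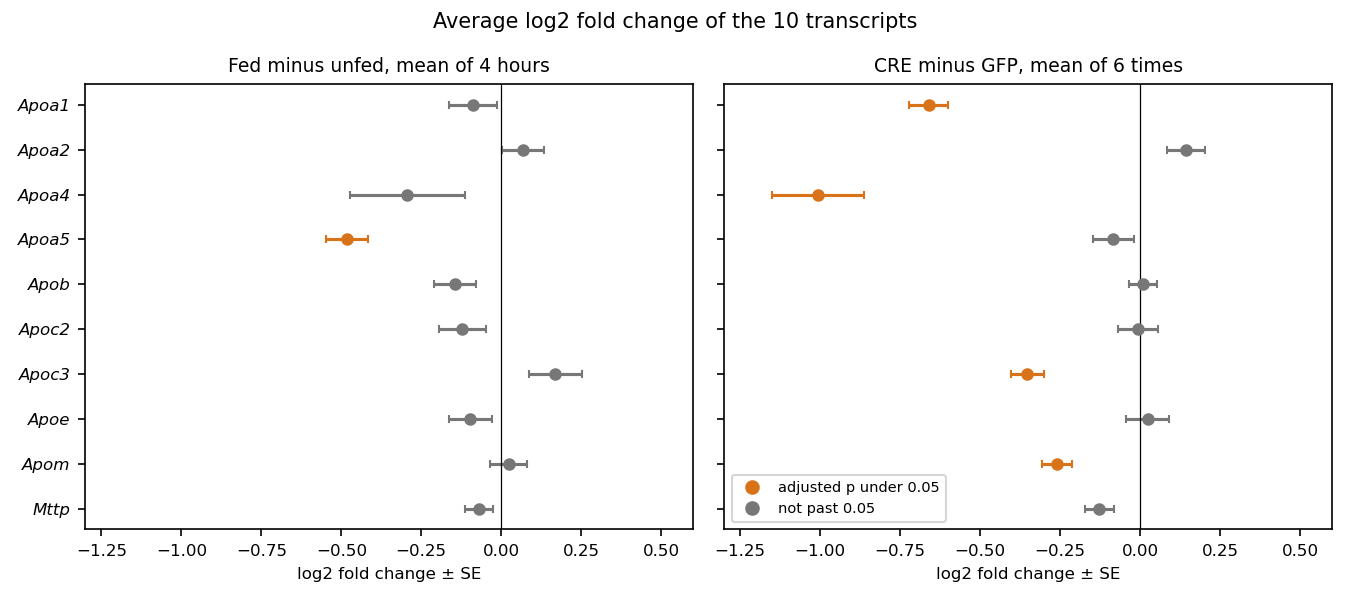
Mean log2 difference (horizontal axis) of each of the 10 genes, coloured where past the threshold, for fed minus unfed C57BL/6 livers over 4 hours and for CRE minus GFP livers over 6 times, with bars of 1 standard error from edgeR's fit and a line at 0. Apoa5 lies at -0.48 in the first comparison and Apoa1 at -0.66 in the second.

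Over the mean of the times, 4 of 10 members were lower in CRE livers, against 6.64% of all genes, and 0 were higher, against 7.92%. The median log2 difference was -0.11 over the members and -0.00 over all genes. At ZT10 0 members were past the threshold (4 at an unadjusted p under 0.05, and 0 with DESeq2), against 0.223% of all genes higher and 0.471% lower. At ZT12 1 was lower, against 2.25%, and 0 higher, against 1.5%. At ZT13 3 were lower, against 3.15%, and 0 higher, against 1.89%. At ZT14 3 were lower, against 0.987%, and 0 higher, against 0.586%. At that time the 11 Kupffer cell markers had a median of -0.63, with 1 past the threshold (Cd5l, -1.03, adjusted p = 0.0449), and a summed level of 303 to 357 CPM with GFP and 191 to 226 CPM with CRE. Their part in the ZT14 differences was not tested. For the mean of the times 0 of these 11 were past the threshold (median -0.14). Of the 9 hepatocyte markers tested, 1 was past it in that mean: Alb, lower in CRE livers by 0.23 ± 0.07 (adjusted p = 0.0174). That is a 1.17-fold lower level. The median of the 9 was -0.08, and their part in the members' differences was not tested. At ZT18 1 member was lower, against 0.0636%, and 0 higher, against 0.0382%. At ZT22 0 were past it (Apoa1 alone at an unadjusted p under 0.05, and 1 with DESeq2), against 0.0891% higher and 0.0573% lower. Change with time was past the threshold in 0 members (2 at an unadjusted p under 0.05, and 0 with DESeq2), against 0.687% of all genes. The scale matters to counts over all genes: with library totals alone the median over all genes rose to 0.10 for the mean, 0.33 at ZT10 and 0.34 at ZT12. The split of 1245 higher and 1044 lower for the mean then became 2438 and 435. At single times 35 and 74 became 1073 and 44 (ZT10), 236 and 353 became 1807 and 156 (ZT12), 297 and 495 became 90 and 307 (ZT13), 92 and 155 became 9 and 85 (ZT14), and 14 and 9 became 4 and 5 (ZT22). Apoa1, Apoa4 and Apoc3 stayed past the threshold for the mean in all 43 other settings run, and Apom in 42. Without the 6 libraries rich in NR_046233, which leaves 5 times (a setting chosen after seeing the data), the means were -0.74 for Apoa1, -0.90 for Apoa4, -0.34 for Apoc3 and -0.31 for Apom, all past the threshold.

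The step from unfed ZT12 to fed ZT13, in which hour and food change together, was past the threshold for 0 members with GFP (3 at an unadjusted p under 0.05, and 1 with DESeq2), against 1.91% of all genes higher and 1.04% lower. With CRE it was also 0 (2 at an unadjusted p under 0.05, and 0 with DESeq2), against 5.77% higher and 3.61% lower. Apom went from 84.7, 102 and 110 CPM to 83.4, 80.5 and 67.5 CPM with GFP (-0.36 ± 0.11, adjusted p = 0.0814). Apoa5 went from 925, 1011 and 846 CPM to 728, 746 and 641 CPM with GFP (-0.40 ± 0.16, adjusted p = 0.181), and its step with CRE was -0.27 ± 0.16 (adjusted p = 0.317). The CRE step minus the GFP step was past the threshold for 0 members (0 at an unadjusted p under 0.05, and 0 with DESeq2), against 0% of all genes higher and 0% lower. With library totals alone, the GFP split of 300 higher and 164 lower became 2884 and 38, with the median over all genes at 0.32, and the CRE split of 907 and 567 became 343 and 135.

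GR peaks at ZT10 were read as intervals, since the authors' lists give no height. Of 5772 peaks found in both replicates, peaks within 25 kb of the gene interval lay near 7 of 10 members, against 28.6% of the 15712 tested genes. Around the 4 chromosome 9 neighbours there are 3 of them: chr9:46207241-46207449, chr9:46215733-46215941 and chr9:46256703-46256911. Within 25 kb the first is near Apoa1 alone, the second near Apoa1, Apoc3 and Apoa4, and the third near Apoc3, Apoa4 and Apoa5, so these 4 genes are not independent counts. The first and second peaks lie within the interval of the neighbouring gene Sik3, and the third lies between Apoa4 and Apoa5, outside the gene intervals drawn in the cluster map. Apoa1 lies 12689 bp from the nearest peak of this list, Apoc3 17109 bp, Apoa4 13245 bp and Apoa5 11697 bp. Apoa5, which did not pass the CRE test, was thus no farther from a peak of this list than Apoa1, which did. Apob and Mttp, which also did not pass it, each had a peak inside the gene, at chr12:7984292-7984500 and chr3:138106960-138107168. Apoa2 had its nearest at 6950 bp. For Apom, which was lower in CRE livers, the nearest peak of this list was 148983 bp away, and for Apoc2 and Apoe 139848 and 116479 bp. Within 10 kb it was 3 of 10 members (Apoa2, Apob and Mttp) against 21% of genes, and within 50 kb the count was 7 against 38.5%. All 5772 peaks are also in the longer list called against chromatin of AAV-tbg-CRE livers (18543 peaks), in which 10 of 10 members had a peak within 25 kb, against 70.4% of genes. In the list called against input (23683 peaks) it was 9 of 10, against 62.1%. Within 10 kb the longer lists differed on Apoa1, Apoa5 and Apom. The list called against AAV-tbg-CRE chromatin had peaks near 9 of 10 members (58.6% of genes), Apoa5 and Apom included and Apoa1 not. The list called against input had them near 8 of 10 (49.6%), Apoa1 included and Apoa5 and Apom not. Inside Apoa4 lay a peak of the CRE chromatin list, 13.2 to 13.4 kb from the Apoa1 start. Inside Apoc3 lay a peak of the input list, at 6.68 to 6.87 kb. No peak found in both replicates overlapped the promoter window of any of the 9 members that have one. A peak of the list called against input did so for Apoa2, whose window is chr1:171224804-171225103.

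**Figure D5:**
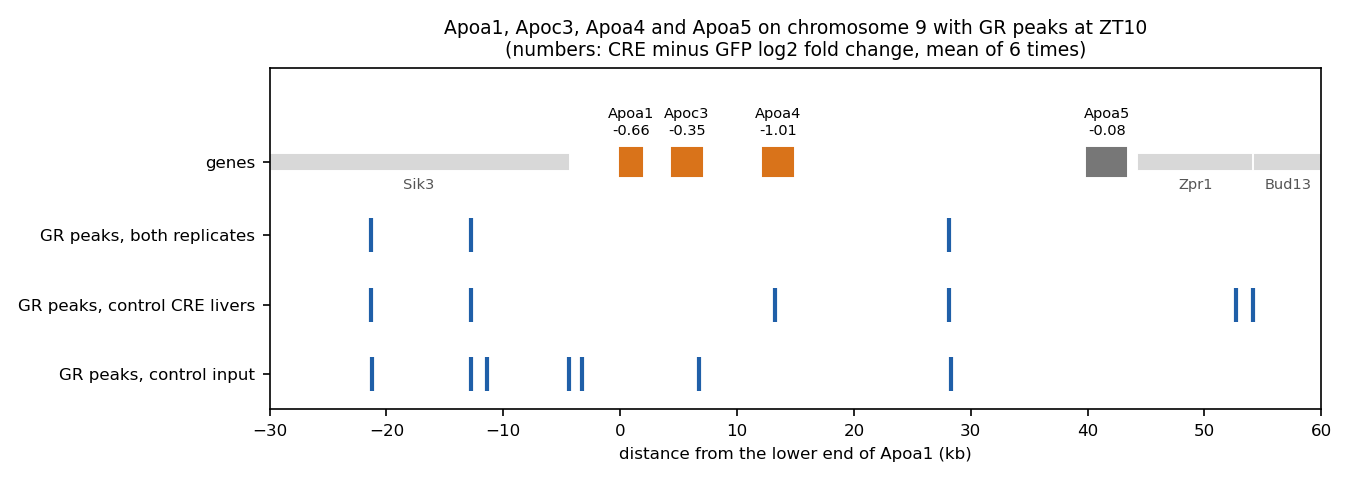
Map of the chromosome 9 cluster drawn to scale, with distance from the Apoa1 start in kb on the horizontal axis, gene intervals as boxes (coloured where the CRE minus GFP mean passed the threshold) and the peaks of the 3 GR lists as ticks on separate levels. The 3 peaks found in both replicates lie at -21.4, -12.9 and 28.1 kb, outside the 4 apolipoprotein genes.

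Across the 21 liver groups, group means of log2 CPM, each experiment centred on its own mean, were compared as a description. They share the scaling of their libraries, so n = 21 groups are not independent tests. Apoa1 and Apoa4 had the highest Pearson r among the members (0.77), followed by Apoa4 and Apoc3 (0.65) and Apoa1 and Apom (0.63). Apoa5 and Apoc3, neighbours in the same cluster, had r = -0.15, and Apoa1 and Apoa2, partners on HDL, -0.11. Apob and Apoc3 had the lowest (-0.48). Apoa4 had the widest range of group means, 182 to 449 CPM in C57BL/6 livers, a 2.46-fold range, and 38.6 to 132 CPM in Nr3c1fl/fl livers, 3.43-fold. Its replicates also spread the most, with a median coefficient of variation of 29.8% and 21.9%. The narrowest range was that of Apoe in the first experiment (1.23-fold) and of Apob in the second (1.15-fold). The 5 genes of 14638 whose pattern was most like that of Apoa4 were Sult1a1 (r = 0.90), Cyp17a1 (0.90), B4galnt1 (0.87), Cyp39a1 (0.86) and Nrbp2 (0.86).

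Genes around the members were taken from 4 lists, to be read against the 17.5% of all genes higher and 17.9% lower in the mean with food. Of 7 other apolipoproteins tested, 3 rose and 1 fell with food over the mean of the hours (median 0.17): Apol9a rose by 0.70 ± 0.09 (adjusted p = 1.273e-06), Apol9b by 0.53 ± 0.07 and Apof by 0.19 ± 0.05, and Apoh fell by 0.13 ± 0.05. Of 20 genes of VLDL assembly and export, 5 rose and 5 fell (median -0.02). Mia3 and Mia2, cargo receptors for large cargo leaving the endoplasmic reticulum, fell by 0.52 ± 0.05 and 0.36 ± 0.05. Sec23a, a coat subunit of the same vesicles, fell by 0.34 ± 0.04, and P4hb, the partner subunit of MTTP, rose by 0.29 ± 0.05 (adjusted p = 1.667e-05) while Mttp itself did not pass the test. Of 18 genes of receptors and remodelling, 7 rose and 5 fell (median -0.02). Angptl8 rose by 2.29 ± 0.23 and Angptl4 fell by 1.66 ± 0.14, both regulators of lipoprotein lipase. Mylip, a ubiquitin ligase that acts on the LDL receptor, fell by 1.05 ± 0.08. Of 18 regulators of apolipoprotein genes, 4 rose and 9 fell (median -0.17). Srebf1 rose by 1.78 ± 0.11, and Ppargc1b, Ppara and Creb3l3 fell by 0.74 ± 0.07, 0.69 ± 0.06 and 0.28 ± 0.04. The endothelial markers given beside Apoa5 all fell in this mean too (median -0.28), with a summed level of 220 to 326 CPM in fed and 274 to 385 CPM in unfed livers. Of the 9 hepatocyte markers tested, 1 rose and 2 fell (median 0.01). The part of either marker set in these lists was not tested. The difference with food changed with hour in 2 of the 7 other apolipoproteins and 3 of the 20 assembly genes. So it did in 5 of the 18 receptor and remodelling genes and 3 of the 18 regulators, against 8.1% of all genes. Apol9a (adjusted p = 4.424e-04), Apol9b (2.484e-04), Mylip (0.0247), Angptl4 (0.0372) and Ppargc1b (0.0425) were among them, so their means do not stand for each hour.

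The same lists in CRE livers are read against 7.92% of all genes higher and 6.64% lower for the mean. There 2 of the 7 other apolipoproteins rose and 1 fell (median -0.06): Apol9b by 0.39 ± 0.07 and Apol9a by 0.42 ± 0.11 up, and Apoh, an abundant plasma glycoprotein, fell by 0.23 ± 0.04 (adjusted p = 8.801e-05). Of the 20 assembly genes 4 rose and 2 fell (median -0.01). Ces1d and Ces3a, carboxylesterases of the hepatocyte, rose by 0.58 ± 0.08 and 0.25 ± 0.07. Smlr1 rose by 0.25 ± 0.05, and Apobec1, which edits Apob RNA, fell by 0.45 ± 0.09 (adjusted p = 4.274e-04). Of the 18 receptors and remodelling genes 5 rose and 3 fell (median 0.03). Sort1, which sorts APOB in the secretory pathway, rose by 0.48 ± 0.07, the phospholipid transfer protein gene Pltp by 0.59 ± 0.14 and hepatic lipase, Lipc, by 0.35 ± 0.07, while Angptl4 fell by 0.74 ± 0.15. Of the 18 regulators 3 rose and 3 fell (median 0.05). Hnf4a and Foxo1, transcription factors known to act on apolipoprotein and Mttp genes, fell by 0.40 ± 0.05 (adjusted p = 3.857e-07) and 0.48 ± 0.04 (adjusted p = 3.361e-09). Nr1d1 and Ppara rose by 0.68 ± 0.12 and 0.23 ± 0.06. The CRE-GFP difference changed with time in 1 of the 18 regulators, against 0.687% of all genes. That gene was Foxo1 (adjusted p = 5.561e-05), so its mean does not stand for each time. These lists were drawn up with earlier results of these data known, so their counts describe and do not test.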

How the data were processed

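Liver RNA of 27 C57BL/6 and 36 Nr3c1fl/fl libraries was used. The authors deposited raw counts per RefSeq transcript in a table for each experiment. The submitters' processing notes list STAR, HOMER, DESeq2 and mm10 with neither version nor role, and no source used here says if counting heeded strand. Of 40458 transcripts, 40219 matched the gene table of GRCm38.p6, giving 24790 genes, 7581 of them with several transcripts. Unmatched transcripts held 0.308% to 28.6% of counts per library and were left out. The Apoc2 transcript used has an alternative with 67.8% of its counts.

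The deposited counts went into edgeR 4.0.16 under R 4.3.3 (TMM, filterByExpr, quasi-likelihood F-test), 1 fit per experiment with all its groups, and Benjamini-Hochberg adjusted p under 0.05 counted as past the threshold. Standard errors are the size of the log2 change over the square root of F. CPM are counts over the TMM-scaled total of tested genes, not per length, so levels of different members are not compared. The scripts were tested on simulated data. Alternatives were DESeq2 1.42.0, other scalings, no filter, a replicate block, the 2 groups alone, the NR_046233 share as a covariate and leaving out libraries. The authors' 3 peak lists hold positions only and were read as counting from 0, which the sources used here do not state. Overlap means within 25 kb of the gene interval. The members, lists and named genes (all members, and up to 4 of each list with the smallest p past the threshold in each mean) were chosen with earlier results of these data known. The result of 1 gene that this rule names is not reported here. The rat hepatocyte counts were not used here.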

Additional observations from a re-analysis of the deposited data

Results flagged for a closer look

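The fed-unfed difference of Apoa5 differed between hours by the test of food by hour itself (edgeR, adjusted p = 0.0484). On the log2 scale it was -0.16 (ZT13), -0.32 (ZT14), -0.58 (ZT18) and -0.87 (ZT22), and from ZT14 on all fed livers were below all unfed livers of their hour. DESeq2 gave an adjusted p of 0.00798 for the same test, the lowest over all settings run, and 0.113 was the highest. In edgeR it was over 0.05 in 15 of 24 fits that left out 1 library. It was also over 0.05 with a replicate block (0.0554) and without 2 libraries that hold transcripts of other tissues (0.0627).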

How the results depend on the processing

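For the mean differences, Apoa5 with food and Apoa1, Apoa4 and Apoc3 with CRE kept their direction and side of the threshold in every setting run. Among 1829 values of single members, 1710 kept both, 76 lost the threshold, 23 gained it and 20 changed sign, all of these for means that did not pass the test. Counts of genes past the threshold moved more, and where no value below shows a cause, the cause was not tested.

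DESeq2 gave 350 genes for food at ZT13, 1871 (2 members) for food by hour, 197 for CRE at ZT10, 417 at ZT14, 80 (3 members) at ZT18, 92 (1 member) at ZT22, 402 for virus by time, and 749 (1 member) and 10 for the ZT12 to ZT13 step with GFP and its difference between viruses. Library totals alone gave 2 members for the mean of food, and for CRE 1117 at ZT10, 1963 (2 members, not Apoa1) at ZT12, 397 (0 members) at ZT13, 94 at ZT14, 10 (0 members) at ZT18 and 9 at ZT22, with 2922 (1 member) and 478 for the steps with GFP and CRE. With the 2 groups alone, which leaves fewer samples, it was 95, 1318 (1 member) and 1752 (1 member) for food at ZT13, ZT14 and ZT22, and for CRE 3 members at ZT12, 55 (0 members) at ZT13, 65 (0 members) at ZT18 and 0 genes at ZT22. Without the 2 libraries with transcripts of other tissues, food at ZT14 gave 444 and food by hour 0 members. With the NR_046233 share as a covariate, CRE at ZT10 gave 65, at ZT12 229, and the GFP step 118. Without libraries over 20% in it, CRE at ZT12 gave 105 (0 members), ZT18 0 members, ZT22 10, the GFP step 27 and the mean of the 5 other times 1372. A peak window of 10 kb gave 3 members.

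Leaving out 1 library gave 40 to 434 genes for food at ZT13, 389 to 655 at ZT14, 2530 to 3993 at ZT18, and 1 to 2 members at ZT22, 1 to 3 for the mean, 0 to 2 for food by hour and 2 to 7 for unfed hours. For CRE it gave 43 to 78 at ZT10, 267 to 483 at ZT12, 375 to 1343 (0 to 3 members) at ZT13, 74 to 222 (1 to 2 members) at ZT14, 1 to 6 (0 to 1 members) at ZT18, 3 to 58 at ZT22, 67 to 266 for virus by time, 149 to 477 (0 to 1 members) and 512 to 1271 for the steps, and 0 to 5 for their difference. Means that changed sign were those of Apoc2 (-0.039 to 0.018 without 1 library, 0.11 with library totals, 0.0025 by its other transcript), Apob (-0.0028 to 0.023), Apoe (-0.0054 to 0.050, and -0.050 over the 5 times) and Apoa5 (0.025 with library totals).

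Replicate numbers were not taken to pair libraries, since the labels name nothing shared and same-numbered pairs had median correlations of 0.0285 and 0.00951 in the 2 experiments, with 20.4% and 28.3% of pairs over 0.1. Own-number correlations were the highest in 16 of 27 and 14 of 36 libraries, where 9 and 12 are expected by chance, a hint of shared deviations in the first experiment. With a replicate block, members past the threshold were 0 for food by hour (Apoa5 adjusted p = 0.0554) and 2 for CRE at ZT12. With 3 libraries a group, small differences at single times can be missed.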
